A study of Mus musculus with 24 samples.

Results

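CD4+ thymocytes that had met a self antigen (S-) were compared with CD4+ thymocytes that had not (S+), both from mice of the autoimmunity-prone NOD background. The comparison rested on 3 S- and 3 S+ arrays, chosen by their sample titles, so 6 of the 24 arrays of the series were members. S- cells came from mice that carried the 3A9 T cell receptor (TCR) transgene together with insHEL, a transgene in which the insulin gene promoter drives hen egg lysozyme, the antigen of the 3A9 receptor. S+ cells came from mice with the 3A9 TCR transgene alone, which therefore lacked the antigen. All animals were healthy females of 6 to 8 weeks, and the NOD mice carried the H2k haplotype, which the 3A9 receptor needs and which ordinary NOD mice do not have. In each group, cells were sorted as CD4+CD8lowCD69+1G12+, that is, as cells with high surface levels of the transgenic receptor (recognised by antibody 1G12) that had just left the double positive stage. Pre-selection (PreS) double positive cells, CD4+CD8+CD69-1G12-, of both genotypes on 6 NOD arrays served to estimate the spread, and 6 arrays of S- and S+ cells on the B10 background (C57BL10 with H2k) served for comparison. As models, both groups carried 1 fixed receptor in place of a natural repertoire. The antigen of the S- mice was made under an insulin promoter, and the sorted S- cells were those still alive at sorting. The 3 replicates of a group were separate pools of sorted cells, so the p-values measured the spread between these pools.

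Negative selection is the process by which a thymocyte whose receptor binds a self peptide strongly is deleted, or is diverted into the regulatory lineage. Strong TCR signals induce the orphan nuclear receptor Nr4a1, TNF receptor family members and the BH3-only protein Bim (gene Bcl2l11), which is needed for the death of such cells in mice. Insulin-promoter transgenes are transcribed by medullary epithelial cells of the thymus under control of Aire, and defects of this deletion step are a known trait of the NOD strain.

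Before any comparison, 2 of the 3 S+ arrays stood apart. Control probesets at the 3' and 5' ends of Actb and Gapdh gave a log2 ratio of 3' over 5' signal, averaged over both transcripts, of 1.44, 3.12 and 2.23 in S- replicates 1, 2 and 3, against 5.82, 5.15 and 1.59 in S+ replicates 1, 2 and 3. High ratios are the known mark of shortened RNA or shortened amplification products. The means were 2.27 ± 0.84 in S- cells and 4.18 ± 2.27 in S+ cells (SD, n = 3 each), a difference of -1.92 that did not exceed the spread (exact permutation test, two-sided, p = 0.3, with 0.1 the smallest p that 3 against 3 allows). The 6 NOD PreS arrays ran between 1.41 and 4.94. Over the probesets kept, S+ replicates 1 and 2 correlated with each other at r = 0.950, whereas S+ replicate 3 correlated with them at 0.843 and 0.848 and with S- replicates 1, 2 and 3 at 0.967, 0.932 and 0.936. S+ replicate 3 lay more than 1 log2 unit from the mean of S+ replicates 1 and 2 in 3615 probesets (28.2%), while the S- and S+ group means lay that far apart in 655 probesets (5.1%). S+ replicate 3 and S- replicate 1 were hybridized on the same day, as were S+ replicate 1 and S- replicate 2, and the other arrays lay on days of their own within this comparison. Whether S+ replicate 3 carries the right label could not be settled from the files, and every S- against S+ value below takes the labels as given. For many of the results below the value is also given with the ratio as a covariate, without S+ replicate 3, without S+ replicates 1 and 2 together, or within a day. The part of RNA length in any single difference was not tested.

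**Figure D1:**
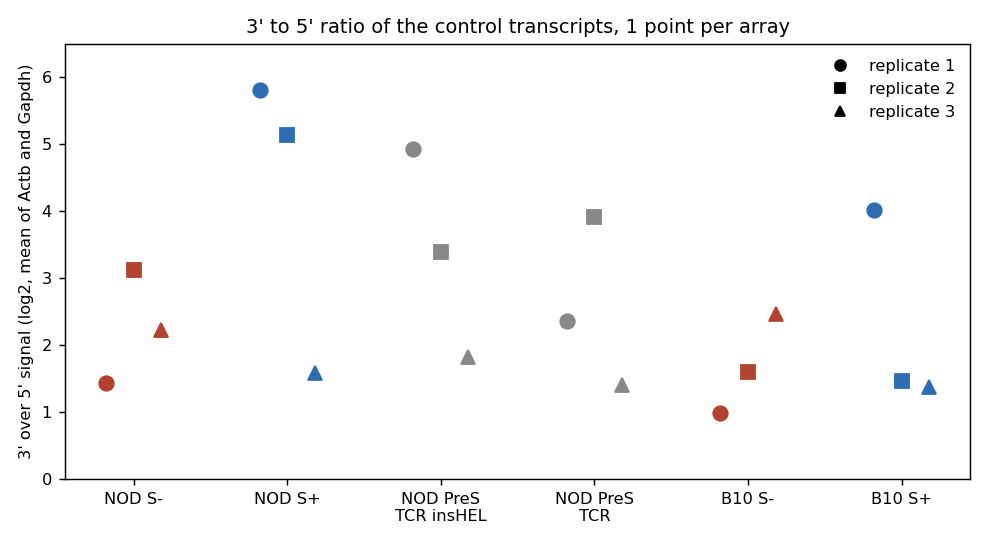
Log2 ratio of 3' over 5' control signal (mean of Actb and Gapdh) on each array, one point per array, with S- left of S+ in each strain and the PreS arrays beside them. S+ replicates 1 and 2 of NOD sit at 5.82 and 5.15, above every other array, whereas S+ replicate 3 sits at 1.59 among the S- arrays (1.44 to 3.12).

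The sorted cells carried the T lineage markers their labels call for. Summed signals of 6 T lineage genes were 13667, 10781 and 11756 in S- replicates 1, 2 and 3, against 10258, 9976.7 and 14194 in S+ replicates 1, 2 and 3. Of the B cell genes, the transcription factors Pax5 and Ebf1 lay below 10 units on all 6 arrays, whereas the surface proteins Ms4a1 (CD20), Cd22, Cd79b and Cd79a reached 127.5, 95.7, 79.4 and 75.8. Signals are in MAS 5.0 units, scaled by the authors to a trimmed mean of 150, and values are listed throughout in the order of replicates 1, 2 and 3. Since these were bulk sorts, fewer cells of a type and less RNA per cell could not be told apart.

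No probeset passed the test between S- and S+ cells. In limma, 0 of 12838 probesets, those whose signal reached 32 in all 3 arrays of at least 1 group of the series, had a Benjamini-Hochberg adjusted p below 0.05 in either direction (0%), with the smallest adjusted p at 0.111. At an unadjusted p below 0.05, 349 probesets (2.72%) were higher in S- cells and 216 (1.68%) were lower, together 4.4% of those tested. All 3 S- signals lay above all 3 S+ signals in 516 probesets (4.02%) and below them in 519 (4.04%), and 53.6% of all differences were above 0. The plain test of the study's methods, run on the same values, called 95 probesets higher and 69 lower at the methods' thresholds, and 0 after Benjamini-Hochberg adjustment. The count turned on S+ replicate 3. Without it, 153 probesets (1.19%) were called higher and 18 (0.14%) lower. Of these 171, 40 kept their direction when S+ replicates 1 and 2 were left out instead (29 of the 153 and 11 of the 18), and 31 showed no overlap over all 6 arrays. Without S+ replicates 1 and 2, 0 probesets were called by limma (0%), and 149 (1.16%) were higher and 55 (0.428%) lower at an unadjusted p below 0.05. The values that follow are thus differences that did not pass the test over all arrays, unless a test is given.

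Several genes known to be induced by TCR signals lay higher on all 3 S- arrays, without passing the test. Others, among them Egr1 and Egr2, overlapped between the groups, and their values are given with their list below. Gadd45b, a stress-inducible activator of MAP kinase signalling, gave signals of 609, 562 and 757 in S- cells, against 190.0, 179 and 167 in S+ cells. Every S- array lay well above every S+ array, and PreS cells gave only 2.5 to 6.3. The log2 difference was 1.84 (SE 0.39) with a 95% interval of 1.00 to 2.68 and an adjusted p of 0.674 in limma. The difference was 1.78 without S+ replicate 3, 1.95 without S+ replicates 1 and 2, and 1.91 and 1.58 within the 2 days that held both groups. A second Gadd45b probeset gave 409, 832 and 571 in S- cells, against 298, 296 and 184 in S+ cells, a difference of 1.16, again without overlap, and a dim one differed by 0.03.

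Kit, the receptor for stem cell factor, gave 182, 173 and 162 in S- cells, against 69.3, 59.3 and 69.8 in S+ cells. Its difference of 1.43 (SE 0.33) hardly moved with the arrays left out, at 1.48 without S+ replicate 3 and 1.32 without S+ replicates 1 and 2. Pdzk1ip1, which codes for a small membrane-associated protein, gave 148, 97.9 and 104 in S- cells, against 46.9, 41.1 and 51.2 in S+ cells. This was a log2 difference of 1.37 (SE 0.29) with an adjusted p of 0.674 in limma, and 1.18 without S+ replicates 1 and 2. In B10 mice Kit and Pdzk1ip1 both passed the test, at 2.63 and 3.09 (limma adjusted p = 1.2e-04 and 1.1e-04). Neither was called in the difference between the strains, which for Kit was -1.20 (limma interaction, adjusted p = 0.392).

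Nr4a1, the nuclear receptor that reports TCR signal strength, gave 1094, 1378 and 1297 in S- cells, against 664, 618 and 691 in S+ cells. The groups did not overlap, the difference was 0.86 (SE 0.37), and it was 0.86 without S+ replicates 1 and 2. Among the TNF receptor family, the costimulatory receptor Tnfrsf9 (4-1BB) gave 865, 537 and 623 in S- cells, against 243, 170.3 and 313 in S+ cells, a difference of 1.50 (SE 0.53). Tnfrsf1b, the second TNF receptor, gave 324, 360.3 and 347 in S- cells, against 237, 134 and 140.1 in S+ cells, a difference of 1.05 (SE 0.30) that was 1.30 without S+ replicates 1 and 2. For Tnfrsf18 (GITR), a costimulator of regulatory T cells, the signals were 1138, 979 and 1194 in S- cells, against 518, 482 and 903 in S+ cells, with S+ replicate 3 nearest to the S- arrays. Its difference of 0.81 was 0.29 without S+ replicates 1 and 2. Tnfrsf4 (OX40) gave 705, 662 and 761 in S- cells, against 556, 471 and 460.2 in S+ cells, a difference of 0.46 that was 0.23 with the ratio as a covariate. None of these 5 genes overlapped between the groups, and none passed (limma adjusted p = 0.803 or higher for each).

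**Figure D2:**
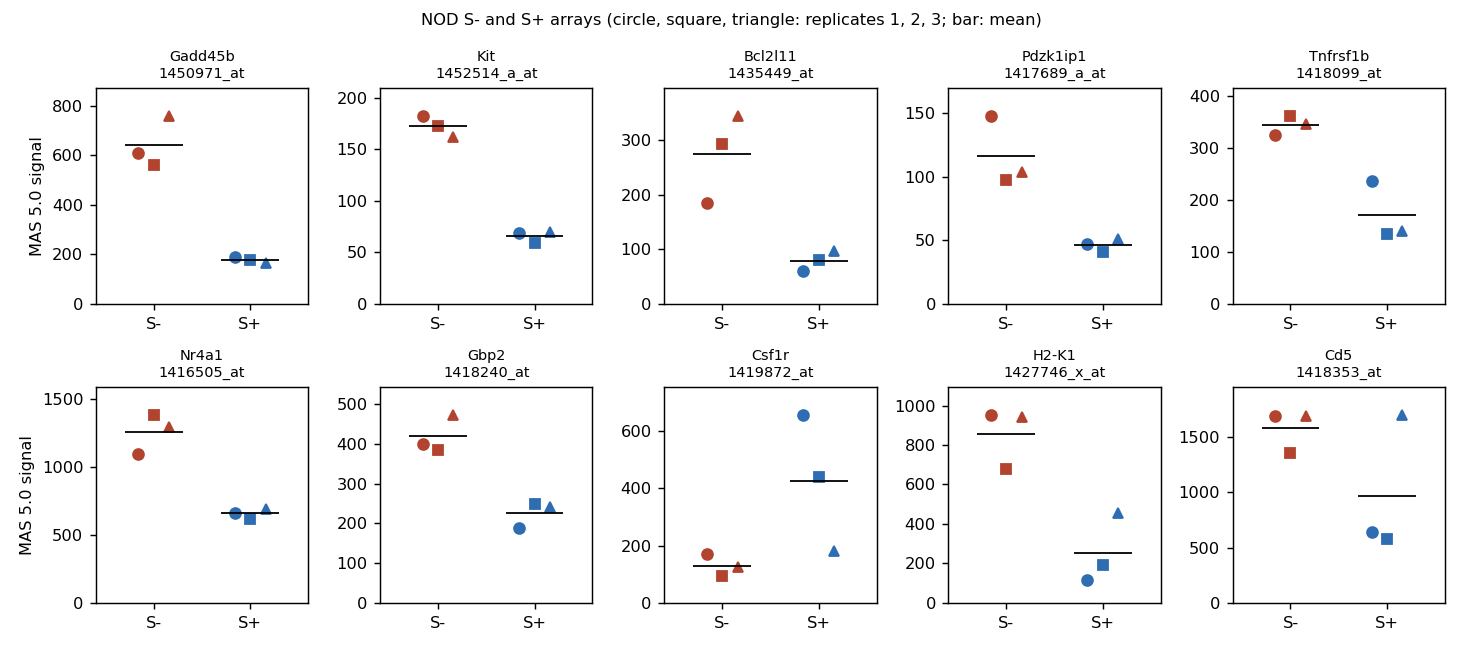
MAS 5.0 signal of 10 genes on each array (linear axes from 0), with the 3 NOD S- arrays left of the 3 NOD S+ arrays. Points are arrays, marked by replicate, and bars are group means. Gadd45b, Kit and Nr4a1 lie higher on all 3 S- arrays, whereas for Cd5 the S+ replicate 3 point (1696) lies at the level of the S- points.

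A list of 27 genes was collected from those that the study names in its account of negative selection and of its defect in NOD cells. Of these, 24 passed the filter on low signal in at least 1 group of the series, and Mertk, Bmp2 and Il1a did not. The study picked these genes from the same samples, so their direction is not independent evidence. Each gene was read by its brightest probeset, which for Bcl2l11, Polr3k and some others is not the one the study names. In NOD cells 0 of the 24 passed the test, 16 lay above 0 and 8 below. Of the 24, 8 were higher on all 3 S- arrays (against 4.02% of all probesets), and 5 were higher at an unadjusted p below 0.05 (against 2.72%). Their median log2 difference was 0.45, against 0.04 over all probesets, and 0.43 without S+ replicate 3, 0.42 without S+ replicates 1 and 2 and 0.28 with the ratio as a covariate. In B10 cells 9 of the same 24 were called higher and the median was 1.10, where 1.29% of all probesets were called higher. In the tested difference between the strains 22 of the 24 lay below 0, with a median of -0.83. Only 1 of them, Bub1, was called lower by limma, against 0.132% of all probesets. Beside those above, Fos, an AP-1 subunit, gave 223, 229.8 and 272 in S- cells, against 118, 107 and 171 in S+ cells, a difference of 0.90 that was 0.49 without S+ replicates 1 and 2. Il2ra, the IL-2 receptor alpha chain, gave 57.1, 57.2 and 52.1 in S- cells, against 30.5, 23.3 and 28.8 in S+ cells. It differed by 1.09 (SE 0.33), with similar values without S+ replicate 3 (1.16) and without S+ replicates 1 and 2 (0.95). Smox, the spermine oxidase, gave 183, 153 and 239.8 in S- cells, against 101, 120.0 and 132 in S+ cells, a difference of 0.70. On the other side of 0 stood Polr3k, a subunit of RNA polymerase III, at 196, 419 and 274 in S- cells, against 726, 777 and 216 in S+ cells. There the groups overlapped, and the difference of -0.92 was 0.37 without S+ replicates 1 and 2. The other Polr3k probesets differed by 0.36, -0.02 and -0.35.

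A wider list of genes known to be induced by strong agonists, which shares members with it, had 0 of its 23 kept members called and 17 above 0. At an unadjusted p below 0.05, 6 were higher, against 2.72% of all probesets. The median was 0.53, and 0.27 with the ratio as a covariate. The 6 members below 0 were Id2 (-0.54), Egr1 (-0.27), Egr2 (-0.21), Nr4a2 (-0.06), Egr3 (-0.01) and Id3 (-0.003), each with overlap. Of 12 kept regulatory T cell genes, 7 were higher on all 3 S- arrays (against 4.02% of all probesets) and 2 were lower on all 3 (against 4.04%). The 2 lower ones were Nrp1 (-0.46) and Izumo1r (-0.40), and Gpr83 (-0.65) lay below 0 with overlap. Foxp3 was not among the 12. The median of 0.47 was 0.48 with the ratio as a covariate, 0.50 without S+ replicate 3 and 0.46 without S+ replicates 1 and 2. Il2ra, with S+ signals under the filter's level, is a member of the study, strong agonist and regulatory T cell lists alike. Ctla4, the inhibitory receptor of regulatory and activated T cells, gave 94.7, 68.6 and 106 in S- cells, against 38.5, 26.6 and 47.3 in S+ cells. It differed by 1.35 (SE 0.31) with an unadjusted p of 7.2e-04 (limma adjusted p = 0.803), and by 0.91 without S+ replicates 1 and 2. The immediate early genes as a list lay close to all probesets, with a median of 0.19 over 16 members (0.06 without S+ replicates 1 and 2), 0 of them past an unadjusted p of 0.05.

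NF-kB pathway genes differed in how far they rested on the S+ arrays with high ratios. Of 13 kept members 0 were called and 4 were higher at an unadjusted p below 0.05, against 2.72% of all probesets. The median was 0.51, but 0.18 without S+ replicates 1 and 2, 0.25 without S+ replicate 1 and 0.05 with the ratio as a covariate. Bcl3, an atypical inhibitor of NF-kB, gave 176, 295 and 208 in S- cells, against 91.1, 128 and 141 in S+ cells, a difference of 0.91 that was 0.64 without S+ replicates 1 and 2. Nfkb2, the precursor of p52, gave 146, 122 and 154 in S- cells, against 43.6, 81.7 and 96.5 in S+ cells. For its partner Relb the signals were 206, 250.3 and 276 in S- cells, against 58.5, 107 and 213 in S+ cells, and here S+ replicate 3 lay within the range of the S- arrays. The difference for Relb was 1.16 over all arrays and 0.18 without S+ replicates 1 and 2. Icam1, an adhesion molecule and NF-kB target, gave 387, 548 and 451 in S- cells, against 276, 261 and 279 in S+ cells, a difference of 0.72 that was 0.71 without S+ replicates 1 and 2.

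Among genes of cell death, Bcl2l11 was read by several probesets that differed among themselves. A dim probeset gave 185, 292 and 343 in S- cells, against 60.7, 79.7 and 96.6 in S+ cells, with no overlap, a difference of 1.80 (SE 0.34) and an adjusted p of 0.316 in limma, which was 0.0269 without S+ replicate 3. A bright one gave 1623, 1842 and 1917 in S- cells, against 1152, 893 and 1065 in S+ cells, a difference of 0.71. Another dim one gave 126, 192 and 193 in S- cells, against 78.2, 67.0 and 81.7 in S+ cells, a difference of 1.17. The brightest one gave 1958, 2859.8 and 2762 in S- cells, against 2261, 2581 and 1146 in S+ cells, so that S+ replicates 1 and 2 lay among the S- arrays and the difference was 0.27 (SE 0.48). The dimmest one gave 31.6, 30.5 and 29.7 in S- cells, against 24, 35.9 and 30 in S+ cells, near the filter's level, and differed by 0.11 in NOD cells. In B10 cells this probeset was called higher at 1.74 (limma adjusted p = 0.00861), and its strain difference was -1.64 (limma adjusted p = 0.0848). The brightest probeset differed by 0.61 in B10 cells (limma adjusted p = 0.693). Its strain difference was -0.34 (limma interaction, adjusted p = 0.913). Fasl, the ligand of the death receptor Fas, gave 96.8, 91.0 and 47.9 in S- cells, against 33.4, 37.5 and 38.5 in S+ cells, a difference of 1.11 (SE 0.31) without overlap. Over the BCL2 family, with each gene read by its brightest probeset, no member was free of overlap. Of 12 kept members 0 were called, 0 passed an unadjusted p of 0.05, and 10 lay below 0 with a median of -0.12. Bid, a BH3-only protein cut by caspase 8, gave 108, 73.7 and 81.2 in S- cells, against 51.3, 44.8 and 100.3 in S+ cells. Its difference was 0.55 in NOD cells, and -0.21 without S+ replicates 1 and 2. In B10 cells Bid was called higher at 1.62 (limma adjusted p = 0.00246). Its strain difference of -1.07 was not called (limma interaction, adjusted p = 0.493). Of 19 caspases and other death genes 0 were called and the median was 0.12, and -0.03 without S+ replicates 1 and 2. Sesn2, a stress-induced sestrin, was also higher on all 3 S- arrays, at 40.2, 64 and 55.0 in S- cells, against 17.9, 38.0 and 24.2 in S+ cells.

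Interferon-induced genes stood higher in S- cells of NOD mice as a list, by small amounts per gene. Of 39 genes listed, 31 were on the array and passed the filter. Of these, 29 lay above 0, against 53.6% of all probesets, while 0 were called. At an unadjusted p below 0.05, 3 were higher (against 2.72% of all probesets), and 6 were higher on all 3 S- arrays (against 4.02%). The median was 0.52, and 0.43 without S+ replicate 3, 0.50 without S+ replicates 1 and 2, 0.45 with the ratio as a covariate and 0.30 without S- replicate 1. Within the 2 days that held both groups it was 0.64 for S- replicate 1 against S+ replicate 3 and 0.23 for S- replicate 2 against S+ replicate 1. In B10 cells the median was -0.14. Gbp2, an interferon-induced guanylate binding protein, gave 399, 385 and 471 in S- cells, against 188, 249 and 241 in S+ cells. It differed by 0.88 (SE 0.24) in NOD cells (limma adjusted p = 0.803) and by -0.41 in B10 cells, and the difference between the strains was 1.29 (SE 0.30; limma interaction, adjusted p = 0.0823). A brighter Gbp2 probeset, the one read in the list, overlapped between the groups and differed by 0.48 in NOD cells and by -0.55 in B10 cells. Its strain difference was 1.03 (limma interaction, adjusted p = 0.708). Parp14, an interferon-induced ADP-ribosyltransferase, gave 739.7, 654 and 814 in S- cells, against 406, 462 and 436 in S+ cells, a difference of 0.71 without overlap. Irgm2, an immunity-related GTPase singled out after its values were seen, gave 264, 311 and 253 in S- cells, against 156, 138 and 158 in S+ cells, a difference of 0.86. Bst2 (tetherin) gave 113, 61.9 and 49.8 in S- cells, against 14.3, 30.3 and 73.2 in S+ cells, so that S+ replicate 3 lay within the S- range and the difference of 1.26 was -0.05 without S+ replicates 1 and 2.

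The promoters of Gbp2 and Bst2 are printed because 29 of the 31 list members lay on one side. That of Irgm2, which was not a member of the list, is printed because the gene was singled out above. They are RefSeq sequences on GRCm38.p6, running on the gene's strand from 250 bases before to 50 after the annotated start, with capitals marking GAAA followed by any 2 bases and again GAAA, the core of the interferon response element, searched on both strands. Gbp2 lies at chr3:142620413-142620712 on the plus strand, and its match reads on the other strand. Irgm2 lies at chr11:58214727-58215026 on the plus strand. Bst2 lies at chr8:71537423-71537722 on the minus strand and holds a pair of matches that overlap each other.
Gbp2: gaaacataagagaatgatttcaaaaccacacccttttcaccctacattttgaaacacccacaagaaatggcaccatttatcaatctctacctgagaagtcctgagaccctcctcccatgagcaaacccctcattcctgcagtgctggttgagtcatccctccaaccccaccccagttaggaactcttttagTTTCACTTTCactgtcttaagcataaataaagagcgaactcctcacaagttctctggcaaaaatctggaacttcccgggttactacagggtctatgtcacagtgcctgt
Irgm2: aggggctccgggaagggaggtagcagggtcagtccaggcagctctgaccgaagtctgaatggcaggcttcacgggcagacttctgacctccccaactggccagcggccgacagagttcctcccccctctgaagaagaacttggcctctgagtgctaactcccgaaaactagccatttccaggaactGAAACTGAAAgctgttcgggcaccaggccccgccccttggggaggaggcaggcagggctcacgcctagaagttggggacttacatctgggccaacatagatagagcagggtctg
Bst2: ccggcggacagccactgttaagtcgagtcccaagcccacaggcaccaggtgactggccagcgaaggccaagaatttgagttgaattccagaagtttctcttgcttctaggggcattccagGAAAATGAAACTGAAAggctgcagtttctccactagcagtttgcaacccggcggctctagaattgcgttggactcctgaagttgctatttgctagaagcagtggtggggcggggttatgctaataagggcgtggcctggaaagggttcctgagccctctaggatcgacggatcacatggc
The match in Gbp2 covered bases 192 to 201 of the window, that in Irgm2 bases 187 to 196, and those in Bst2 bases 121 to 130 and 127 to 136. Promoters were given for 25 list members, and 12 of these held a match (48%), whereas 3.99% of all 27025 genes and 0 of the 19 promoters given for the genes collected from the study did. The interferon list was written from general knowledge, so its share describes the genes listed and not these arrays. A match of letters is a description of the window and not a site of binding.

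Genes of MHC class I antigen processing are known interferon targets too, but their median lay at 0 without S+ replicates 1 and 2. Of 13 kept members 11 lay above 0, 0 were called, and the median of 0.67 was 0.99 without S+ replicate 3, 0.00 without S+ replicates 1 and 2, and 0.11 with the ratio as a covariate. Psmb8, a subunit of the immunoproteasome, gave 1166, 988 and 1091 in S- cells, against 390.4, 459.5 and 1113 in S+ cells. S+ replicate 3 thus lay among the S- arrays and S+ replicates 1 and 2 far below, and the difference was 0.85 over all arrays and -0.04 without those replicates. Psmb9, its partner subunit, gave 882, 664 and 713 in S- cells, against 263, 340.2 and 749.6 in S+ cells, in the same order. Psmb8 and Psmb9 are members of the interferon list as well. Erap1, which trims peptides in the endoplasmic reticulum, gave 152, 116 and 136 in S- cells, against 82.4, 79.0 and 97.3 in S+ cells, without overlap. Its difference of 0.67 was 0.47 without those replicates and 0.60 with the ratio as a covariate. B2m, the light chain, lay on the other side at -0.58, and at -0.57 without those replicates. Cd5, a surface inhibitor whose level follows TCR signal strength, had this pattern as well, with 1689, 1356 and 1689.5 in S- cells, against 638, 579.9 and 1696 in S+ cells. Its difference was 0.82, against -0.11 without S+ replicates 1 and 2 and 0.21 with the ratio as a covariate. H2-K1, a class I heavy chain, gave 949.7, 679 and 939.9 in S- cells, against 116, 192 and 458 in S+ cells on a probeset that can also bind transcripts of near-identical class I genes. Here the groups did not overlap, but S+ replicate 3 was again the highest S+ array, and the difference of 1.99 was 0.90 without S+ replicates 1 and 2. The other H2-K1 probesets differed by 1.01, 0.54 and 0.40, with overlap.

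**Figure D3:**
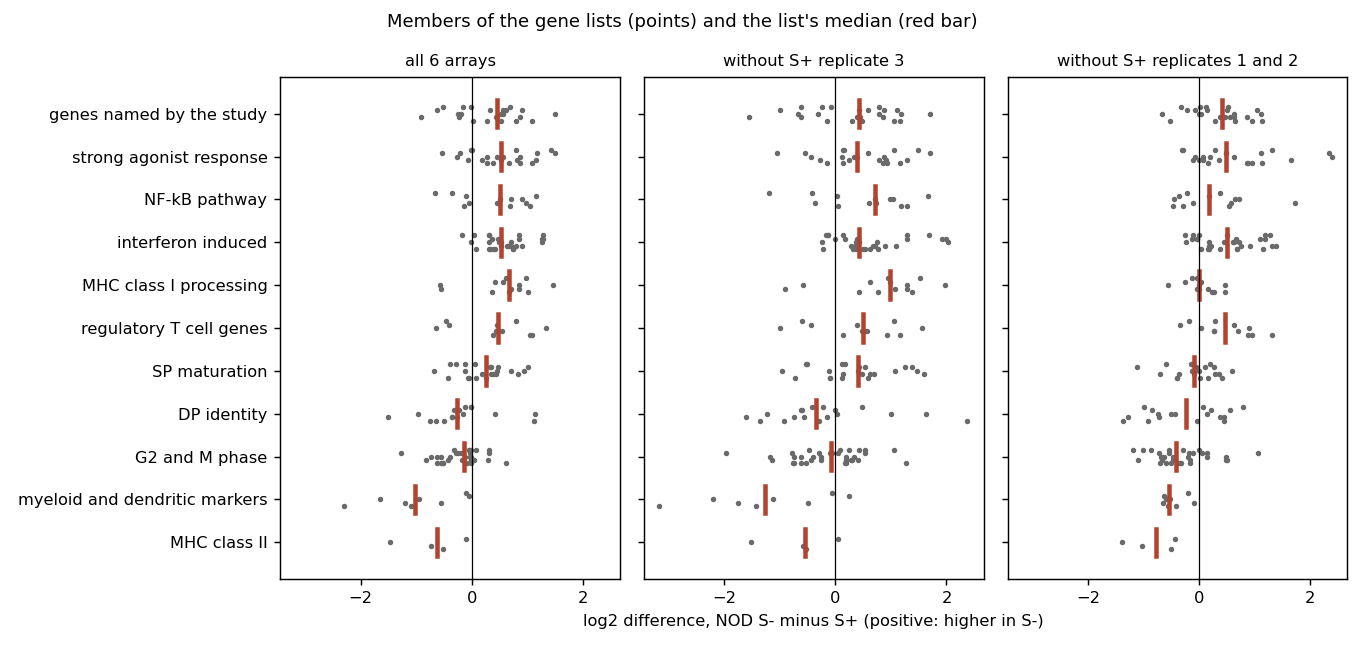
Log2 difference, S- minus S+, of each kept member of 11 gene lists in NOD cells (points) and the median of each list (red bars), over all 6 arrays, without S+ replicate 3 and without S+ replicates 1 and 2. The interferon median stays near 0.5 (0.52, 0.43 and 0.50), whereas the MHC class I median is 0.67, 0.99 and 0.00.

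Genes of the double positive stage tended to lie lower in S- cells. Of 18 kept members 15 lay below 0 and 0 were called. At an unadjusted p below 0.05, 2 were lower (against 1.68% of all probesets), and the median was -0.27. The median was -0.16 without S+ replicate 2 and -0.12 for S- replicate 1 against S+ replicate 3, with 8 of 18 above 0 in that pair. Rag2, a subunit of the V(D)J recombinase, gave 15, 4.6 and 9.5 in S- cells, against 31.2, 25.6 and 21.1 in S+ cells, all of them low signals. Its difference was -1.51 (SE 0.44) without overlap. Dntt, the terminal transferase that adds bases at receptor joints, gave 1535, 2034 and 1389 in S- cells, against 3782, 2804 and 2192 in S+ cells, a difference of -0.96 (SE 0.39) that was -0.43 without S+ replicates 1 and 2. Genes of single positive maturation had a median of 0.26 over 23 members, which was -0.09 without S+ replicates 1 and 2 and -0.45 in B10 cells. Cd4 itself gave 968, 752 and 784 in S- cells, against 852, 1052 and 1298 in S+ cells, a difference of -0.43 with overlap. Il7r, the IL-7 receptor alpha chain, gave 420.4, 598 and 599 in S- cells, against 1111, 789 and 565 in S+ cells, also with overlap. Lists of metabolism and of the protein machinery had medians of -0.12 for ribosomal proteins, -0.11 for chaperones, -0.07 for cholesterol synthesis, -0.02 for the respiratory chain, -0.01 for glycolysis and 0.29 for the proteasome, and 0 of their members called. Without S+ replicates 1 and 2 the median was 0.04 for ribosomal proteins, 0.03 for chaperones, -0.18 for cholesterol synthesis and -0.04 for the proteasome.

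Markers of antigen-presenting cells lay on the lower side, in cells gated as T cells. Of 12 myeloid and dendritic genes on the array 8 passed the filter. All 8 lay below 0 and 0 were called. At an unadjusted p below 0.05, 4 were lower (against 1.68% of all probesets), and the median was -1.02. The median was -1.27 without S+ replicate 3 and -0.54 without S+ replicates 1 and 2, and in B10 cells it was 0.54. For S- replicate 1 against S+ replicate 3, which share a day and a low ratio, it was -0.16 with 2 of 8 above 0, and for S- replicate 2 against S+ replicate 1 it was -1.58. Summed signals of the 12 genes were 1548, 995.5 and 1037 in S- replicates 1, 2 and 3, against 2370.0, 1745 and 1736 in S+ replicates 1, 2 and 3, so the groups did not overlap. Cst3, 1 of the 12, made up much of these sums and itself overlapped. It gave 897.5, 579.4 and 584.7 in S- cells, against 541.1, 528.8 and 1045 in S+ cells. Csf1r, the receptor for macrophage colony-stimulating factor, gave 169, 95.6 and 124 in S- cells, against 654, 439.6 and 182 in S+ cells. Its difference was -1.65 (SE 0.46), and -0.53 without S+ replicates 1 and 2, whereas a dimmer Csf1r probeset differed by 0.21. C1qb, a chain of complement C1q made by macrophages, gave 41.5, 67.3 and 36.7 in S- cells, against 459.8, 326 and 67.9 in S+ cells, a difference of -2.30 (SE 0.62) that was -0.56 without S+ replicates 1 and 2. Among the defining markers Itgam (CD11b) gave 1.0, 1.5 and 1.9 in S- cells, against 19.0, 4.3 and 0.6 in S+ cells, which is near the bottom of the scale. Itgax was brighter, at 62.3, 42.1 and 38.2 in S- cells, against 143, 106.8 and 61.7 in S+ cells. Adgre1 gave 86.3, 33.2 and 33.6 in S- cells, against 91.5, 111.3 and 70.1 in S+ cells. Both overlapped between the groups. Summed B cell markers overlapped between the groups, at 334.7, 179.4 and 210.4 in S- replicates 1, 2 and 3, against 372.0, 334.8 and 241.2 in S+ replicates 1, 2 and 3.

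MHC class II genes lay lower as well, with or without S+ replicates 1 and 2. H2-Eb1, a class II beta chain, gave 617, 259 and 261 in S- cells, against 1142, 722 and 911 in S+ cells. It differed by -1.48 (SE 0.49), by -1.52 without S+ replicate 3 and by -1.39 without S+ replicates 1 and 2. All 4 kept class II genes lay below 0, 0 were called, and the median was -0.63, and -0.77 without S+ replicates 1 and 2. Ifi30, a lysosomal thiol reductase of class II presenting cells, gave 182, 162 and 144 in S- cells, against 471, 294 and 254 in S+ cells, a difference of -1.08 (SE 0.30) without overlap that was -0.66 without S+ replicates 1 and 2. Ccl5, a chemokine of activated lymphocytes and innate cells, gave 72.9, 17.1 and 22.0 in S- cells, against 347, 129 and 85.6 in S+ cells, a difference of -2.41 (SE 0.61), and -1.50 without S+ replicates 1 and 2. Lgals3, which codes for the lectin galectin-3 and is abundant in macrophages, gave 68.6, 51.4 and 59.7 in S- cells, against 217, 152 and 77.7 in S+ cells, where S+ replicate 3 lay close to the S- arrays. The part of other cells in the sorts in any of these differences was not tested.

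The remaining genes that met the naming rule had less in common. On the higher side stood Get3 (tail-anchored protein insertion), Ccni (an atypical cyclin), Diaph1 (an actin-nucleating formin), Arhgap20 (a GTPase-activating protein) and Cd47 (the signal that protects cells from phagocytosis). Their log2 differences were 0.99 for Get3, 1.24 for Ccni, 1.32 for Diaph1, 1.99 for Arhgap20 and 2.89 for Cd47. Without S+ replicates 1 and 2 they were 0.59 for Get3, 0.36 for Diaph1 and 0.94 for Cd47. Brighter probesets of some of these genes overlapped between S- and S+ cells, with differences of 0.08, -0.35 and 0.13 for Cd47, 0.02 for Diaph1 and 0.67 and -0.38 for Ccni. On the lower side stood Hes5 (a Notch target repressor), Cadm1 (an adhesion molecule), Zdhhc14 (a palmitoyltransferase), Rrbp1 (a ribosome-binding protein of the endoplasmic reticulum), Ppt2 (a lysosomal thioesterase), Prss2 (a trypsinogen) and Bmp2k (a kinase), with differences between -2.12 for Hes5 and -0.81 for Bmp2k. For Rrbp1 the named probeset differed by -1.08 and the others by 0.12 and 0.29. Without S+ replicates 1 and 2 the differences were -0.44 for Rrbp1, -0.54 for Cadm1 and -0.43 for Bmp2k, against -1.31 for Cadm1 and -0.81 for Bmp2k over all arrays. All 24 genes named for the smallest p on either side kept their sign under every alternative run, a property that their lack of overlap in part fixes, and all 24 missed the threshold, with adjusted p from 0.316 to 0.803 in limma. Suz12, a subunit of the Polycomb repressive complex 2 picked out after its values were seen, had the smallest p of all, with signals of 32.5, 44.4 and 169.7 in S- cells, against 3.8, 4.4 and 4.2 in S+ cells, and a limma adjusted p of 0.111. Its other probesets differed by 1.26 and, for the brightest, 0.15.

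The response of NOD cells differed from that of B10 cells in genes of mitosis and in some others. The interaction between strain and antigen was tested over all 24 arrays. In limma, 17 probesets were called with a lower difference in NOD than in B10 (0.132%) and 2 with a higher one (0.0156%). Beside genes of mitosis, the lower ones included Tnni1 (-3.66), Rab13 (-3.21), Pkig (-2.81) and Lad1 (-2.23). The 2 higher ones were Phf21a (1.69) and a probeset without a single gene symbol (3.56). The ratio of control signals was uneven in B10 too, at 0.99, 1.60 and 2.46 in B10 S- cells, against 4.02, 1.47 and 1.39 in B10 S+ cells. Kif2c, a kinesin that takes apart kinetochore microtubules, gave 275, 244 and 188 in S- cells, against 439, 263 and 367 in S+ cells of NOD mice. B10 mice gave 598, 506 and 286 in B10 S- cells, against 90.4, 43.2 and 46.6 in B10 S+ cells, so that all 3 B10 S- arrays lay above all 3 B10 S+ arrays. The strain difference was -3.60 (SE 0.45; 95% interval -4.52 to -2.67; limma adjusted p = 5.0e-04). Mki67, the proliferation marker Ki-67, gave 428, 309.8 and 294 in S- cells, against 582, 497 and 432 in S+ cells of NOD mice, and 744, 671 and 734 in B10 S- cells, against 52.5, 110.5 and 129 in B10 S+ cells, a strain difference of -3.63 (limma adjusted p = 0.00426). In NOD mice all 3 S+ signals of Mki67 lay above all 3 S- signals (difference -0.62), and for Kif2c the groups overlapped. NOD S+ cells thus already carried signals above those of B10 S+ cells, the low group for both genes. Cks2, a cofactor of cyclin-dependent kinases, gave 418, 384 and 308 in S- cells, against 431, 332 and 458 in S+ cells of NOD mice, and 784, 665 and 504 in B10 S- cells, against 172, 127 and 136 in B10 S+ cells, a strain difference of -2.35 (limma adjusted p = 6.9e-04).

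Over the list of 34 G2 and M phase genes, 27 lay below 0 in NOD cells, 0 were called and the median was -0.14. It was -0.38 with the ratio as a covariate, -0.41 without S+ replicates 1 and 2, -0.33 without S+ replicate 2, -0.08 without S+ replicate 3, -0.25 without S- replicate 1 and -0.05 without S- replicate 2. In B10 cells 25 of the 34 were called higher, against 1.29% of all probesets, and the median was 1.54. The strain difference was below 0 in 33 of the 34, and 6 of them were called lower by limma. Genes of DNA replication had a median of -0.01 over 30 members in NOD cells (-0.22 with the ratio as a covariate and -0.32 without S+ replicates 1 and 2) and 0.86 in B10 cells, with 4 called higher in B10 and 0 called in the strain difference. No gene of the interferon list was called in the strain difference either, although 29 of its 31 members lay above 0.

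The promoters of Kif2c and Mki67 are printed because these genes carried the tested strain difference. Capitals mark TTTGAA, the cell cycle homology region of genes repressed in resting cells, searched on both strands of the same RefSeq windows on GRCm38.p6. Kif2c lies at chr4:117178723-117179022 and Mki67 at chr7:135716330-135716629, both on the minus strand.
Kif2c: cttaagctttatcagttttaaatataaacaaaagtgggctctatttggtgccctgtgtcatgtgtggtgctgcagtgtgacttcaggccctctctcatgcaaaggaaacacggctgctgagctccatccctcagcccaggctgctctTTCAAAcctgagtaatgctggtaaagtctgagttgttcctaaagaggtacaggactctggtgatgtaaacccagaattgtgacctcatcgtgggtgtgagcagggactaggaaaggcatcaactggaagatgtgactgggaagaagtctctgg
Mki67: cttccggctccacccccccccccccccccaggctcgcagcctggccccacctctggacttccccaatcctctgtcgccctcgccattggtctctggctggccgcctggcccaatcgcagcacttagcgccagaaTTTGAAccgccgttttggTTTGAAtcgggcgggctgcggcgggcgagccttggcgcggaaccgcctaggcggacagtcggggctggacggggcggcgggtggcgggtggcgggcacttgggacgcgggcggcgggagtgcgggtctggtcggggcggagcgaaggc
The match in Kif2c covered bases 148 to 153 and read on the other strand, and those in Mki67 covered bases 135 to 140 and 153 to 158. Promoters were given for 29 G2 and M phase genes, and 22 of these held the letters (75.9%), whereas 20.2% of all genes did. This list too was written from general knowledge, so the share describes its genes and not the strain difference. Here again a match of letters is not a site of binding.

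**Figure D4:**
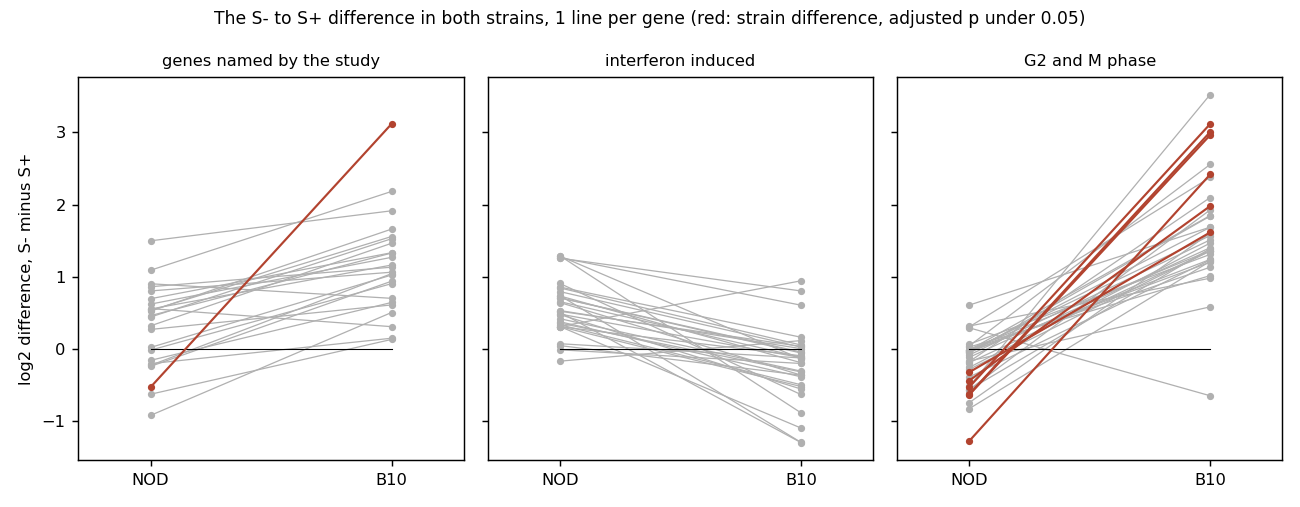
Log2 difference, S- minus S+, in NOD and in B10 cells for 3 gene lists, with 1 line per gene and red lines for genes whose strain difference had an adjusted p below 0.05. Most lines of the G2 and M phase list climb to B10 (medians -0.14 in NOD and 1.54 in B10), whereas those of the interferon list descend (0.52 in NOD and -0.14 in B10).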

How the data were processed

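Labelled RNA of the 24 cell pools, amplified in 2 rounds, was hybridized to Affymetrix mouse arrays by the authors, who computed MAS 5.0 signals with a trimmed mean of 150. The deposited table held these signal values on a linear scale, and per-array scanner records gave the hybridization days. Here, the 64 control probesets were dropped, the 33 signals of 0 became 0.1, log2 was taken, and each array was brought to the same mean and variance on the log2 scale. Because present calls were not used here, a probeset was kept if its signal reached 32 in all 3 arrays of a group (12838 of 22626 kept, 7831 genes). Contrasts came from limma 3.58.1 (R 4.3.3), fitted over the 12 NOD arrays, the 12 B10 arrays, or all 24 for the interaction, with Benjamini-Hochberg adjustment over all kept probesets and a threshold of 0.05. The number of arrays limits the precision. The fit was tested on simulated data.

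Genes named were the 12 of smallest p on each side among probesets without overlap and with a mean signal of at least 100, up to 4 of smallest p in each list, the genes collected from the study's account of negative selection, and 8 genes of the strain difference. The members and lists were chosen with earlier results of these data known. A gene in a list is represented by its brightest kept probeset. Symbols came from the platform annotation, with 20380 probesets having 1 symbol, 691 several and 1555 none. The alternatives covered scaling, filters, blocks, covariates and left-out arrays.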

Additional observations from a re-analysis of the deposited data

Results flagged for a closer look

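The effect of the antigen differed between the strains in 9 named genes, each by an interaction term in limma over all 24 arrays with an adjusted p below 0.05. The NOD minus B10 difference in S- minus S+ was -3.60 on the log2 scale for Kif2c, -3.63 for Mki67, -3.64 for Bub1 (a spindle checkpoint kinase), -3.67 for Sgo1 (a guardian of centromere cohesion) and -3.69 for Cenpf (a kinetochore protein). It was -2.66 for Cep55, a protein of the final cut between daughter cells, -2.42 for Nusap1, a spindle protein, -2.35 for Cks2 and -2.23 for Lad1, an anchoring filament protein. Lad1 gave 79.5, 71.4 and 66.1 in S- cells, against 64.9, 63.2 and 71.3 in S+ cells of NOD mice, and 827, 834 and 1332 in B10 S- cells, against 222, 133 and 236 in B10 S+ cells. Sgo1 gave 86.0, 79.4 and 73.2 in S- cells, against 138, 69.2 and 112 in S+ cells of NOD mice, and 131, 63.4 and 124 in B10 S- cells, against 7.2, 5.1 and 28.9 in B10 S+ cells. In all 9 genes the B10 difference lay above 0 and passed the test in B10. Over the 19 alternatives run for each gene, Kif2c, Cks2, Lad1 and Sgo1 were called in all 19, Bub1 and Mki67 in 18, Cep55 and Nusap1 in 11 and Cenpf in 6, and the direction of none of the 9 changed. Bub1 and Mki67 missed the threshold without NOD S+ replicates 1 and 2, at -3.44 and -3.35. Cenpf missed it when any single S- or S+ array of either strain but NOD S+ replicate 3 was left out and with no filter, and its difference was -2.28 without NOD S+ replicates 1 and 2. Cep55 missed it without NOD S- replicate 2 or 3, NOD S+ replicate 1, B10 S- replicate 1 or B10 S+ replicate 2 or 3, with no filter, and without NOD S+ replicates 1 and 2 together, with -2.23 as the smallest difference. Nusap1 missed it without any 1 NOD S- array, NOD S+ replicate 1, B10 S- replicate 1 or B10 S+ replicate 2, with no filter, and without NOD S+ replicates 1 and 2 together, with -2.14 as the smallest difference.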

How the results depend on the processing

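The count of 0 probesets called higher in NOD S- cells was 1 with a floor of 16 units, 1 with all 24 arrays in the fit, 1 with the Actb ratio alone as a covariate and 1143 with array weights, and 0 to 153 with 1 array left out, the highest without S+ replicate 3. The count called lower was 651 with array weights and 0 to 18 with 1 array left out. Array weights gave S+ replicate 3 a weight of 0.254 and S- replicate 3 a weight of 4.36, and their 1794 calls included all 171 made without S+ replicate 3. At an unadjusted p below 0.05, the 349 higher probesets were 632 with all 24 arrays, 88 with day as a fixed block, 2509 with array weights, 95 without the array of highest ratio in each group, 149 without S+ replicates 1 and 2, and 146 to 1803 with 1 array left out. The 216 lower ones were 516 with no filter, 138 with a filter of 64, 389 with all 24 arrays, 70 with day as a fixed block, 1794 with array weights, 81 without the array of highest ratio in each group, 55 without S+ replicates 1 and 2, and 89 to 1160 with 1 array left out. With 1 array left out, B10 gave 78 to 155 higher (166 with all) and 19 to 37 lower (48 with all). The strain difference gave 1 to 85 higher (2 with all) and 9 to 76 lower (17 with all). With the ratio covariate the strain difference gave 4 higher and 48 lower, and lower counts of 36 with MAS 5.0 scaling only, 35 with quantile normalization and 28 with a filter of 64. The cause of these shifts was not tested.

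Same-numbered S- and S+ arrays deviated together at r = -0.30, 0.29 and -0.12. With 3 arrays per group and no differently numbered arrays compared, these values cannot decide whether the numbers pair the arrays. With the replicate block, 0 probesets were called and 563 were higher and 283 lower at an unadjusted p below 0.05. Of 159 named probesets, 62 changed sign without S+ replicates 1 and 2, 14 with the ratio covariate and 3 without S+ replicate 3. Of 28 list medians, 11 changed sign without S+ replicates 1 and 2 and 5 with the ratio covariate.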
